A study of Mus musculus with 51 samples.

Results

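The Hes, Hey and Id genes are 10 genes (Hes1, Hes5, Hes6, Hey1, Hey2, Heyl, Id1, Id2, Id3 and Id4) among the 22359 coding genes of the mm9 annotation used here. They were examined for H3K27ac and H3K4me1 while mouse embryonic stem cells of the C57/BL-6 background were turned into astrocytes in culture. The peaks described are those of 6 deposited lists, 1 for each of 2 marks at 3 stages, that overlap the body of a gene plus 20 kb on each side. The stages are aNPC, stem cell-derived astrogliogenic progenitors grown with N2, EGF and FGF-2, then eA, early astrocytes after 1 day in DMEM with low serum and LIF, and lA, late astrocytes after 5 days in that medium. No stage carries a transgene or knockdown, and all cells are cultured cells of the same in vitro course. For each mark and stage 2 biological replicates were sequenced and merged by the authors before peaks were called. Each list is therefore a single sample, differences between stages have no replicate error, and none was tested. The 10 windows, of 41.2 to 56.3 kb, held 387 peaks, and no peak fell in the windows of 2 of the genes.

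Hes and Hey proteins are basic helix-loop-helix (bHLH) repressors, and many of their genes are classical targets of Notch. When a neighbouring cell presents a ligand, the intracellular part of Notch is released, joins the DNA-binding protein Rbpj and activates such targets. Hes1 and Hes5 in turn repress proneural genes such as Neurog2. Id proteins have the helix-loop-helix but no basic region. They bind partners such as Tcf3 and Tcf12, keep them off DNA, and are the classical targets of BMP signalling through Smad proteins. Apart from Hes6, described below, both families are known to keep neural progenitors from becoming neurons and to act in astrogliogenesis. H3K27ac marks active promoters and enhancers, and H3K4me1 marks enhancers and the flanks of promoters, also before H3K27ac appears there.

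Genomic sequence is shown for 3 promoters and 6 distal sites. It was read from the mm9 reference (NCBIM37), 250 bases upstream of the coding start site for promoters on the strand of the gene, and 200 bases around the summit of an H3K27ac peak, plus strand, for distal sites. Capitals mark matches, on either strand, to 7 short motifs. These are GTGGGAA (Rbpj), CACNAG (the N box bound by Hes proteins), GGCGCC (BMP Smad), TTCNNNGAA (Stat), TGANTCA (AP-1), TTGGCA (one arm of the NF1 site) and TGTGGT (Runx). The promoters shown are the 3 of the 10 that hold the Rbpj motif, namely Hes1 at chr16:30065176-30065425, Hes5 at chr4:154334782-154335031 and Hey2 at chr10:30562608-30562857 on the minus strand.
Hes1 promoter: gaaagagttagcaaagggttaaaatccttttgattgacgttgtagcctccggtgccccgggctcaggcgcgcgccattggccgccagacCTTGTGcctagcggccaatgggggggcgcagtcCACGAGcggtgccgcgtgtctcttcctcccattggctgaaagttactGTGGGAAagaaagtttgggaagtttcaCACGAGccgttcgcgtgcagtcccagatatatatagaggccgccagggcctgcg
Hes5 promoter: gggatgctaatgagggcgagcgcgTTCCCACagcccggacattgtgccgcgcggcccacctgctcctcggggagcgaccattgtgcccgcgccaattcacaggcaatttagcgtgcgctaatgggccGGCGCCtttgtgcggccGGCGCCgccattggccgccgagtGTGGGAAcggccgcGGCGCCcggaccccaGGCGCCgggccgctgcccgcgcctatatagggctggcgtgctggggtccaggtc
Hey2 promoter: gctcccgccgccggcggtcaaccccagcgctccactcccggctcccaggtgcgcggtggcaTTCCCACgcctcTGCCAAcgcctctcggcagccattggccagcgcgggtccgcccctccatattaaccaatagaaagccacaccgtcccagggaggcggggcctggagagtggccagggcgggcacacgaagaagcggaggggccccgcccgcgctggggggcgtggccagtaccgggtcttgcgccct

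In Hes1 the Rbpj motif lay with its middle at −78 bp from the start site, between N boxes at −158, −125 and −51 bp. In Hes5 there were 2 Rbpj matches, at −223 and −80 bp, and 4 matches to the BMP Smad motif between −120 and −51 bp. The Rbpj match of Hey2 lay at −186 bp, next to an NF1 arm at −175 bp. Of all 45962 coding start sites, 5.13% had an Rbpj match in the same 250 bases, 35.6% an N box, 12.4% a BMP Smad match and 11.1% an NF1 arm. Among the other 7 members, the upstream 250 bases of Id2 and Hey1 held 1 BMP Smad match each (−229 and −87 bp), those of Hes6, Id1 and Id3 1 N box each, those of Hey1 also an NF1 arm, and those of Heyl 1 Runx match. Id4 had no match to any of the 7 motifs, and Stat and AP-1 motifs, which 6.51% and 5.62% of start sites hold, were found at none of the 10. Runx matches were held by 12.5% of start sites. A match is a run of letters and does not show that a factor was bound.

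The distal sites shown are 4 without an H3K27ac peak in at least 1 stage upstream of Hes1, Id2, Id3 and Heyl, the distal site of Hes5 and a site downstream of Id1 with H3K27ac at all 3 stages. They were picked after their values had been seen. The windows are chr16:30059941-30060140 for Hes1, chr4:154322878-154323077 for Hes5, chr4:122905228-122905427 for Heyl, chr2:152567234-152567433 for Id1, chr12:25784046-25784245 for Id2 and chr4:135696828-135697027 for Id3.
Hes1 distal site in eA: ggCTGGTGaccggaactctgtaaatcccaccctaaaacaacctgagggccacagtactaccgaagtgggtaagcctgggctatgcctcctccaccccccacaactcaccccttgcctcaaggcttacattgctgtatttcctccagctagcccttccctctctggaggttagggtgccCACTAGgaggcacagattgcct
Hes5 distal site in eA: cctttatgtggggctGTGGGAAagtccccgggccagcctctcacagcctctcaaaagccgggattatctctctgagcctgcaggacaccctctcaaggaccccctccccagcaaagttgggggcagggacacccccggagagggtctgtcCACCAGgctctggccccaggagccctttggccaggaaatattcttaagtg
Heyl distal site in aNPC: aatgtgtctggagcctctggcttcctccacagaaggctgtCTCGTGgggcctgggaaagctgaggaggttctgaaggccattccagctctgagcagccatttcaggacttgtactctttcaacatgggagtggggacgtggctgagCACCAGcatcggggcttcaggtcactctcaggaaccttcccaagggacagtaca
Id1 distal site in aNPC: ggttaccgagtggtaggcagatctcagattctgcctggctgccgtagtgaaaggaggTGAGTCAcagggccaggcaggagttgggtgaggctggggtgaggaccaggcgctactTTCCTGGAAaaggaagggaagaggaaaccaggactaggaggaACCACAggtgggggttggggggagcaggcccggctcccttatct
Id2 distal site in eA: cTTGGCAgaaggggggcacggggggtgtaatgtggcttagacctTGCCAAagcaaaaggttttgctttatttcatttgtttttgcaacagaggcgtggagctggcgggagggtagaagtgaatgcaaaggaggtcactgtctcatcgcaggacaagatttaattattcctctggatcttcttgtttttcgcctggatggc
Id3 distal site in lA: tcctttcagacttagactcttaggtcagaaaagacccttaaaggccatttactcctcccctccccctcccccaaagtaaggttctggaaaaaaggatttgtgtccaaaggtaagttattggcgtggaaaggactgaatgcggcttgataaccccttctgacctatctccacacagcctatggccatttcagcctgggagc

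The whole lists held 79413, 83433 and 92700 H3K27ac peaks in aNPC, eA and lA, and 154238, 185478 and 208333 H3K4me1 peaks. How deeply each list was sequenced is not given there, and a stage lacking a peak was below a calling threshold of unknown height at that place and may still bear the mark. The strength of a peak is given as the authors' −log10 q at the summit with its percentile in its own list, and is not compared between lists. Marker promoters did not separate the stages in 1 direction. The promoter of Gfap, the intermediate filament of astrocytes, had peaks in all 6 lists, that of the water channel Aqp4 had H3K27ac in lA alone, that of the gap junction gene Gja1 in eA and lA, and that of S100b, another astrocyte marker, in aNPC alone. H3K27ac was at 4, 4 and 5 of 7 astrocyte promoters in aNPC, eA and lA, at 1 of 4 neuronal promoters at each stage, and at 1, 1 and 0 of 4 pluripotency promoters, where 50.6%, 53.2% and 48.2% of all coding genes had it. Among neural progenitor genes, the promoters of Nes, Sox2 and Pax6 had peaks in all 6 lists and that of Olig2 in none. The pluripotency gene with H3K27ac was Esrrb, and the promoters of Pou5f1, Nanog and Zfp42 were without a peak in all 6 lists.

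The windows of the 10 genes held 46, 51 and 52 H3K27ac peaks in aNPC, eA and lA, and 76, 86 and 76 H3K4me1 peaks. Members differed widely. Id2 had 5, 7 and 9 H3K27ac peaks and 5, 12 and 15 H3K4me1 peaks over the stages, more at each later stage in both marks. Heyl went the other way, with 9, 5 and 4 H3K27ac peaks and 12, 12 and 8 H3K4me1 peaks. Hes1 had 7, 9 and 8 H3K27ac peaks, Id3 6, 9 and 7, Hes6 5, 5 and 8, and Id1 5, 5 and 6. Hey1 had 5, 4 and 5, Id4 1, 3 and 2, Hes5 2 at each stage and Hey2 1, 2 and 1. Taken by family, the H3K27ac peaks numbered 14, 16 and 18 for the 3 Hes genes, 15, 11 and 10 for the 3 Hey genes and 17, 24 and 24 for the 4 Id genes. Of the Hes peaks, 3 at each stage lay at the promoter of a neighbouring gene, Pank4 for Hes5 and Ilkap for Hes6.

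**Figure D1:**
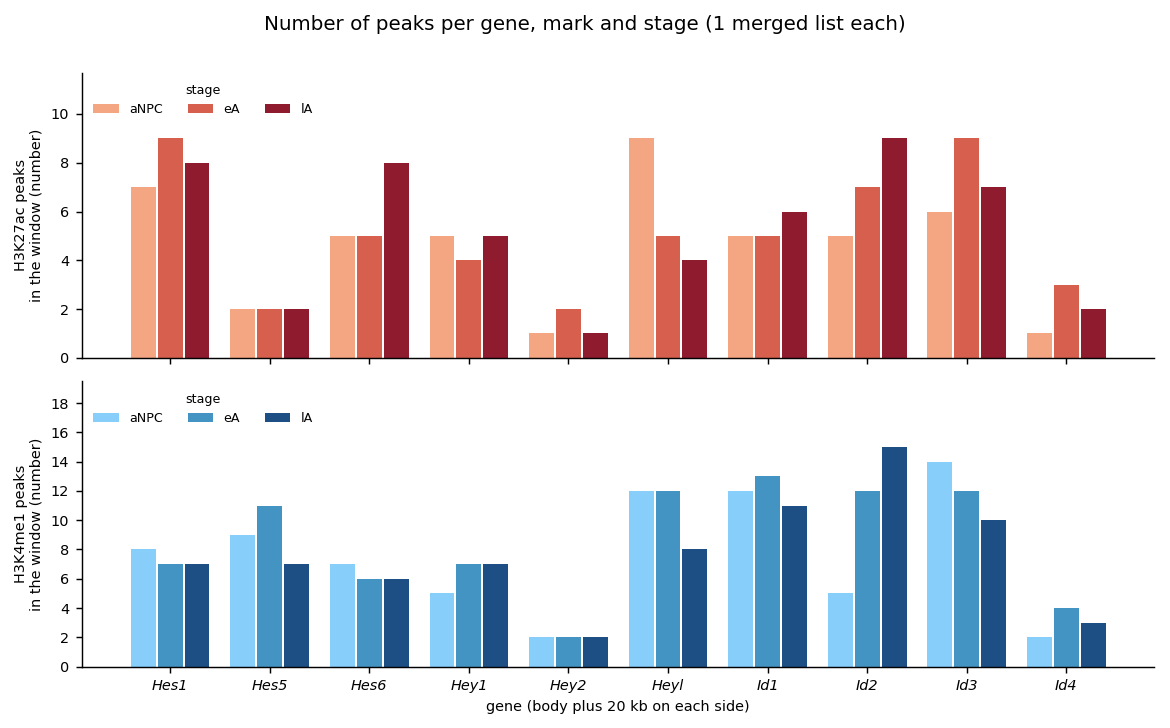
Bars give the number of H3K27ac peaks (upper panel) and H3K4me1 peaks (lower panel) in the window of each gene at aNPC, eA and lA, 1 merged list per bar and so without error bars. Id2 goes from 5 to 9 H3K27ac peaks and from 5 to 15 H3K4me1 peaks, while Heyl goes from 9 to 4 and from 12 to 8. Peaks at promoters of neighbouring genes in a window are counted.

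Peaks covered a median of 5.72%, 6.02% and 6.07% of the 10 windows for H3K27ac in aNPC, eA and lA. Over the windows of all coding genes the medians were 2.47%, 2.80% and 2.70%. For H3K4me1 the medians were 11.5%, 12.4% and 10.3% against 5.11%, 6.13% and 6.36%. Id3 was above the 90th percentile of all genes in every list, with 9.64%, 13.8% and 11.8% of its window under H3K27ac and 17.3%, 18.2% and 16.1% under H3K4me1. The window of Id2 went from 5.80% to 9.70% and 11.1% under H3K27ac, and from 9.28% to 16.0% and 19.4% under H3K4me1, a share that 98.9% of all genes did not reach in lA. Heyl went from 5.41% to 2.46% and 2.43% under H3K27ac, and from 16.1% to 14.1% and 7.71% under H3K4me1. Hey2 was below the median of all genes in every list, with 0.357%, 1.45% and 0.470% under H3K27ac.

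**Figure D2:**
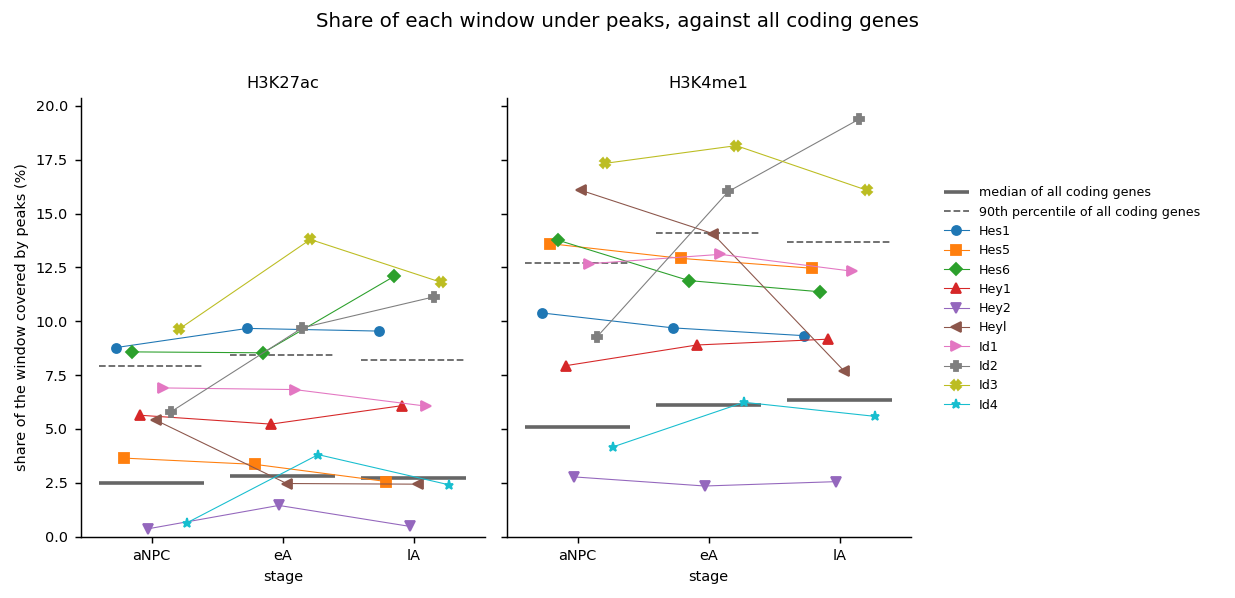
Each symbol is the share of a gene's window under peaks (%), for H3K27ac (left) and H3K4me1 (right) at each stage, with thin lines joining the values of a gene. Thick grey lines mark the median and dashed lines the 90th percentile over the windows of 22359 coding genes, and Id3 lies above the dashed line throughout while Hey2 lies under the thick line throughout.

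At the promoter, taken from 1 kb upstream to 100 bp downstream of the coding start site, 6 of the 10 genes had an H3K27ac peak at each stage. Of all coding genes, 50.6%, 53.2% and 48.2% had one in aNPC, eA and lA, so the members' share was near the background. H3K4me1 was at the promoter of 9, 8 and 8 of the 10, where 55.4%, 53.6% and 52.7% of coding genes had it. With 10 genes the exact binomial 95% interval of 6 of 10 runs from 26.2% to 87.8% and that of 9 of 10 from 55.5% to 99.7%. These and the later intervals are exact (Clopper-Pearson) and cover counting error only. If the promoter was taken up to 1 kb downstream, 8 of the 10 genes had H3K27ac at each stage (52.4%, 55.4% and 51.7% of all genes), and 9, 8 and 8 had H3K4me1 (63.0%, 62.7% and 61.8%). Those that came in were Id3 at all stages, Hes1 in eA, Id4 in aNPC and Hey2 in lA, whose H3K27ac peaks began 140 to 524 bp downstream of the start site.

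Hes6, Hey1, Id1 and Id2 had a promoter peak in all 6 lists, a pattern shared by 7580 coding genes (33.9%). Hes5 and Id3 had H3K4me1 at all stages and no H3K27ac at the promoter, as 1209 genes (5.41%) did. Id4 had H3K4me1 throughout and H3K27ac in eA and lA, a pattern of 305 genes (1.36%), and Hey2 had H3K4me1 throughout and H3K27ac in aNPC and eA, as 564 genes (2.52%) did. Heyl had no promoter peak in any list, like 7632 genes (34.1%). Hes1 had H3K27ac in aNPC and lA and H3K4me1 in aNPC, a pattern found in no other coding gene. With the promoter up to 1 kb downstream, the patterns of Hes1 (H3K27ac throughout, H3K4me1 in aNPC) and of Hes5 were shared by 183 and 1248 genes, Heyl remained without a peak, and the other 7 had peaks in all 6 lists.

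**Figure D3:**
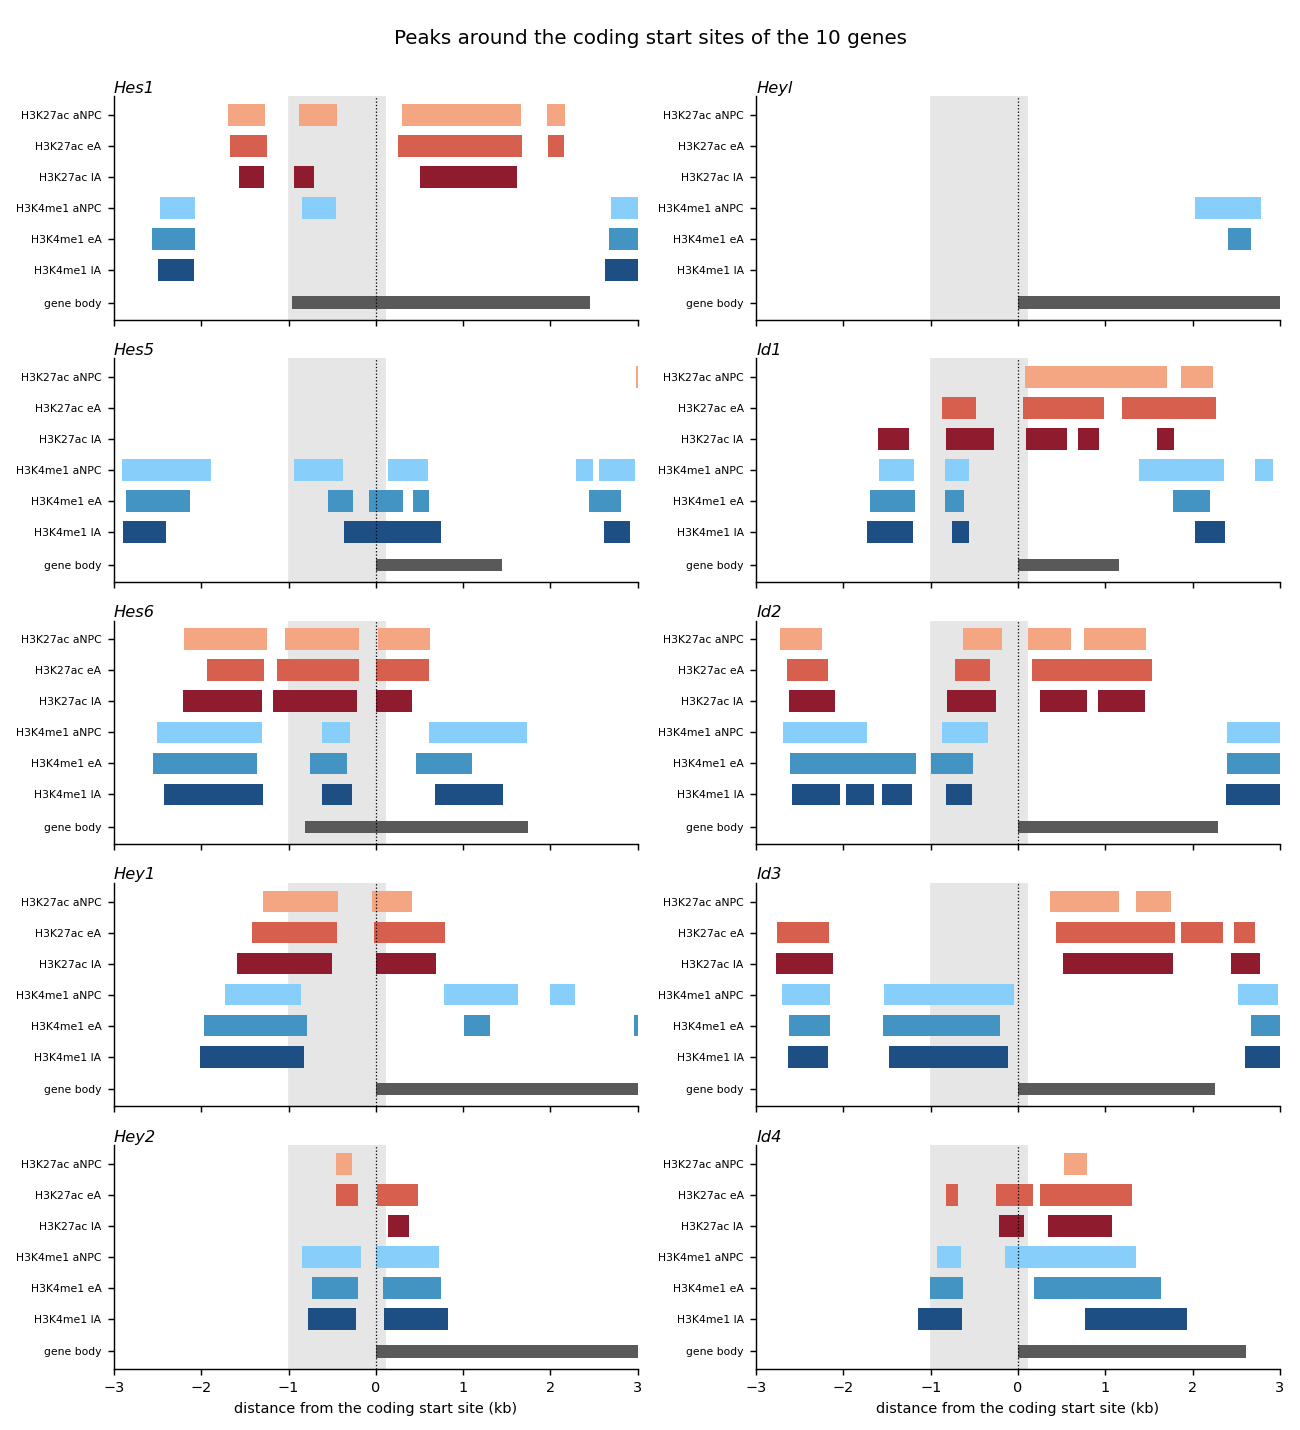
Bars are peaks of each list (rows) within 3 kb of the coding start site (dotted line), by distance along the gene in kb, the grey band is the promoter from 1 kb upstream to 100 bp downstream and the dark bar the annotated gene body. The H3K27ac peaks within the gene bodies of Id2 and Id3 lie apart from H3K4me1, and Heyl has no H3K27ac peak in the panel.

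Hes1 encodes the Notch effector that is known to keep progenitors dividing and to oscillate in them. Its gene record covers chr16:30064470-30067882 on the plus strand and begins upstream of the coding start site at 30065426. Within the 1 kb upstream of the start site, H3K27ac peaks had summits 595 bp away in aNPC (−log10 q 18.6, percentile 67.1) and 850 bp away in lA (10.5, percentile 60.0), and none was called in eA. A broad H3K27ac peak in the gene body was in every list, 1363, 1422 and 1110 bp wide, with percentiles of 90.3, 84.1 and 75.9, and another lay 1587, 1349 and 1408 bp upstream (79.0, 34.9 and 13.96), both without H3K4me1. H3K4me1 was called at the promoter in aNPC alone, 592 bp upstream, and in eA and lA the nearest H3K4me1 peaks lay 2071 and 2084 bp upstream.

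Away from its promoter, Hes1 had 10 distal H3K27ac sites, a site being peaks of 1 mark merged over the stages. A pair of sites downstream of the gene was marked by both marks at all 3 stages. The H3K27ac summits of the first were 4596, 4671 and 4666 bp downstream, with percentiles of 91.0, 2.53 and 77.9, and its H3K4me1 percentiles were 75.6, 96.8 and 96.9. The strongest distal H3K27ac peak of aNPC was this one (−log10 q 82.7), while that of eA was in the gene body (43.3). In lA the strongest was 5366 bp upstream (30.1, percentile 88.6). That upstream site, printed above for Hes1, had H3K27ac in eA (chr16:30059889-30060662, percentile 78.1) and lA (chr16:30059892-30060717), none in aNPC, and H3K4me1 at all 3 stages. Next to it, 6056 and 6052 bp upstream, H3K27ac was also called in eA and lA, and H3K4me1 in aNPC and eA. In aNPC the H3K4me1 peak there, 6030 bp upstream, was the strongest distal one of the gene (35.3, percentile 92.3). By contrast, a site with summits 7884 and 7873 bp upstream had H3K27ac in aNPC and eA, none in lA, and no H3K4me1 peak. The 200 bases printed for the upstream eA site held 2 N boxes and no Rbpj match.

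Hes5, a Notch effector of neural progenitors, had no H3K27ac peak at its promoter or in its body (chr4:154335032-154336480, plus strand) in any list. H3K4me1 was there at all stages and covered the start site in eA and lA. In aNPC it flanked the start site, ending 373 bp upstream and beginning again 138 bp downstream. The H3K27ac peaks counted in its window lay elsewhere. In every list a peak lay at the start site of Pank4, a neighbouring gene 3200 bp downstream, with percentiles of 96.0, 92.0 and 70.8. In aNPC and eA the other lay 11917 and 12054 bp upstream and was weak (−log10 q 2.44 and 5.00, percentiles 0.621 and 21.1). This site, printed above for Hes5, had H3K4me1 at all stages, with summits 12068, 12427 and 12562 bp upstream and percentiles of 94.0, 95.1 and 76.8, and these were the strongest distal H3K4me1 peaks of the gene in each list. Its 200 bases held 1 Rbpj match and 1 N box. In lA the second H3K27ac peak lay inside Pank4, 3965 bp downstream (percentile 71.1).

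Hes6, which is known to antagonise Hes1 and to favour neuronal differentiation, lies at chr1:93308060-93310615 on the minus strand with its coding start site at 93309799. H3K27ac flanked the start site in every list, upstream with summits 564, 666 and 538 bp away (percentiles 97.4, 81.4 and 95.8) and downstream with summits 188, 193 and 171 bp away (89.9, 93.2 and 64.6). Between them, a stretch from 193 to 220 bp upstream of the start site down to 6 to 29 bp downstream of it was without a peak. H3K4me1 peaks at the promoter had percentiles of 26.9, 29.6 and 61.6. The strongest distal H3K4me1 peaks of all members lay just beyond, 2026, 2135 and 2025 bp upstream, with −log10 q of 88.8, 70.7 and 34.8 and percentiles of 99.9, 99.9 and 98.1. H3K27ac overlapped them in every list (summits 1476, 1545 and 1482 bp upstream, percentiles 91.8, 66.0 and 71.4). Downstream of Hes6, toward Ilkap, 3 H3K27ac peaks were called in lA alone, 7450, 8231 and 8567 bp from the start site. They were weak (percentiles 27.6, 39.2 and 26.7) and lay where H3K4me1 was called at all 3 stages (percentiles 75.2, 61.7 and 78.8). The start site of Ilkap, 14439 bp downstream, carried 2 H3K27ac peaks in every list.

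Hey1, the Notch target that partners with Hes proteins, had 2 adjacent H3K27ac peaks at its start site in every list, 1 of which covered it (chr3:8663362-8667039, minus strand). The upstream peaks were 859, 980 and 1097 bp wide with percentiles of 90.8, 92.8 and 96.2, and the downstream ones 464, 813 and 696 bp wide with percentiles of 72.7, 92.1 and 90.6. H3K4me1 peaks overlapped the upstream ones, with summits further out at 1483, 1562 and 1598 bp upstream. A distal site with H3K27ac summits 17994 to 18774 bp upstream carried both marks at all stages. Its H3K4me1 peaks were 1297, 1372 and 1480 bp wide, the strongest distal H3K4me1 peaks of the gene, with percentiles of 88.8, 95.3 and 91.9. Its H3K27ac peaks were weak, the strongest at percentiles of 48.8, 32.7 and 36.5. In lA a peak of the gene body, 3578 bp downstream (percentile 43.6), was the strongest distal H3K27ac peak.

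Hey2, a relative of Hey1 that acts in vessels and heart as well as in progenitors, had the fewest peaks (chr10:30552165-30562607, minus strand). Its H3K4me1 peaks stood on both sides of the start site at all stages, with percentiles of 97.0, 82.3 and 97.1 downstream and 88.8, 70.1 and 71.6 upstream. H3K27ac was called as a single peak 392 bp upstream in aNPC (percentile 29.6), peaks 316 bp upstream and 128 bp downstream in eA (58.1 and 61.9) and 1 peak 308 bp downstream in lA (4.61). Only the stretch within 1 kb of the start site carried peaks, and no other region of the 50.4 kb window was marked at any stage.

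Heyl, the third Hey gene, was the member without promoter peaks (chr4:122910799-122927118, plus strand). In aNPC, 3 H3K27ac peaks stood 6627, 5900 and 5471 bp upstream, with percentiles of 37.2, 42.7 and 43.7, and none of them was called in eA or lA. H3K4me1 was called across the 2 nearer peaks at all 3 stages, with summits 5738, 5800 and 5519 bp upstream and percentiles of 93.1, 86.6 and 79.5, and the sequence of one of them (chr4:122905228-122905427), printed above for Heyl, held 2 N boxes. At the end of the gene, 16014, 16058 and 16079 bp downstream of the start site, H3K27ac and H3K4me1 were called in every list, and this was the strongest distal H3K27ac peak of eA and lA (percentiles 57.7 and 60.9). The strongest of aNPC lay 19351 bp downstream (percentile 72.2). That site kept H3K27ac peaks in eA and lA at percentiles of 20.8 and 7.55, and its H3K4me1 percentiles were 90.8, 92.1 and 88.9. A peak in aNPC 27049 bp downstream (percentile 39.0), whose nearest start site is that of Pabpc4, was not called later, and H3K4me1 there was called in aNPC and eA. Within the gene, H3K4me1 peaks 2623 and 4331 bp downstream in aNPC had counterparts in eA and none in lA. In the other direction, a site 15520 and 15678 bp upstream had weak H3K27ac in eA and lA (percentiles 21.1 and 2.64).

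**Figure D4:**
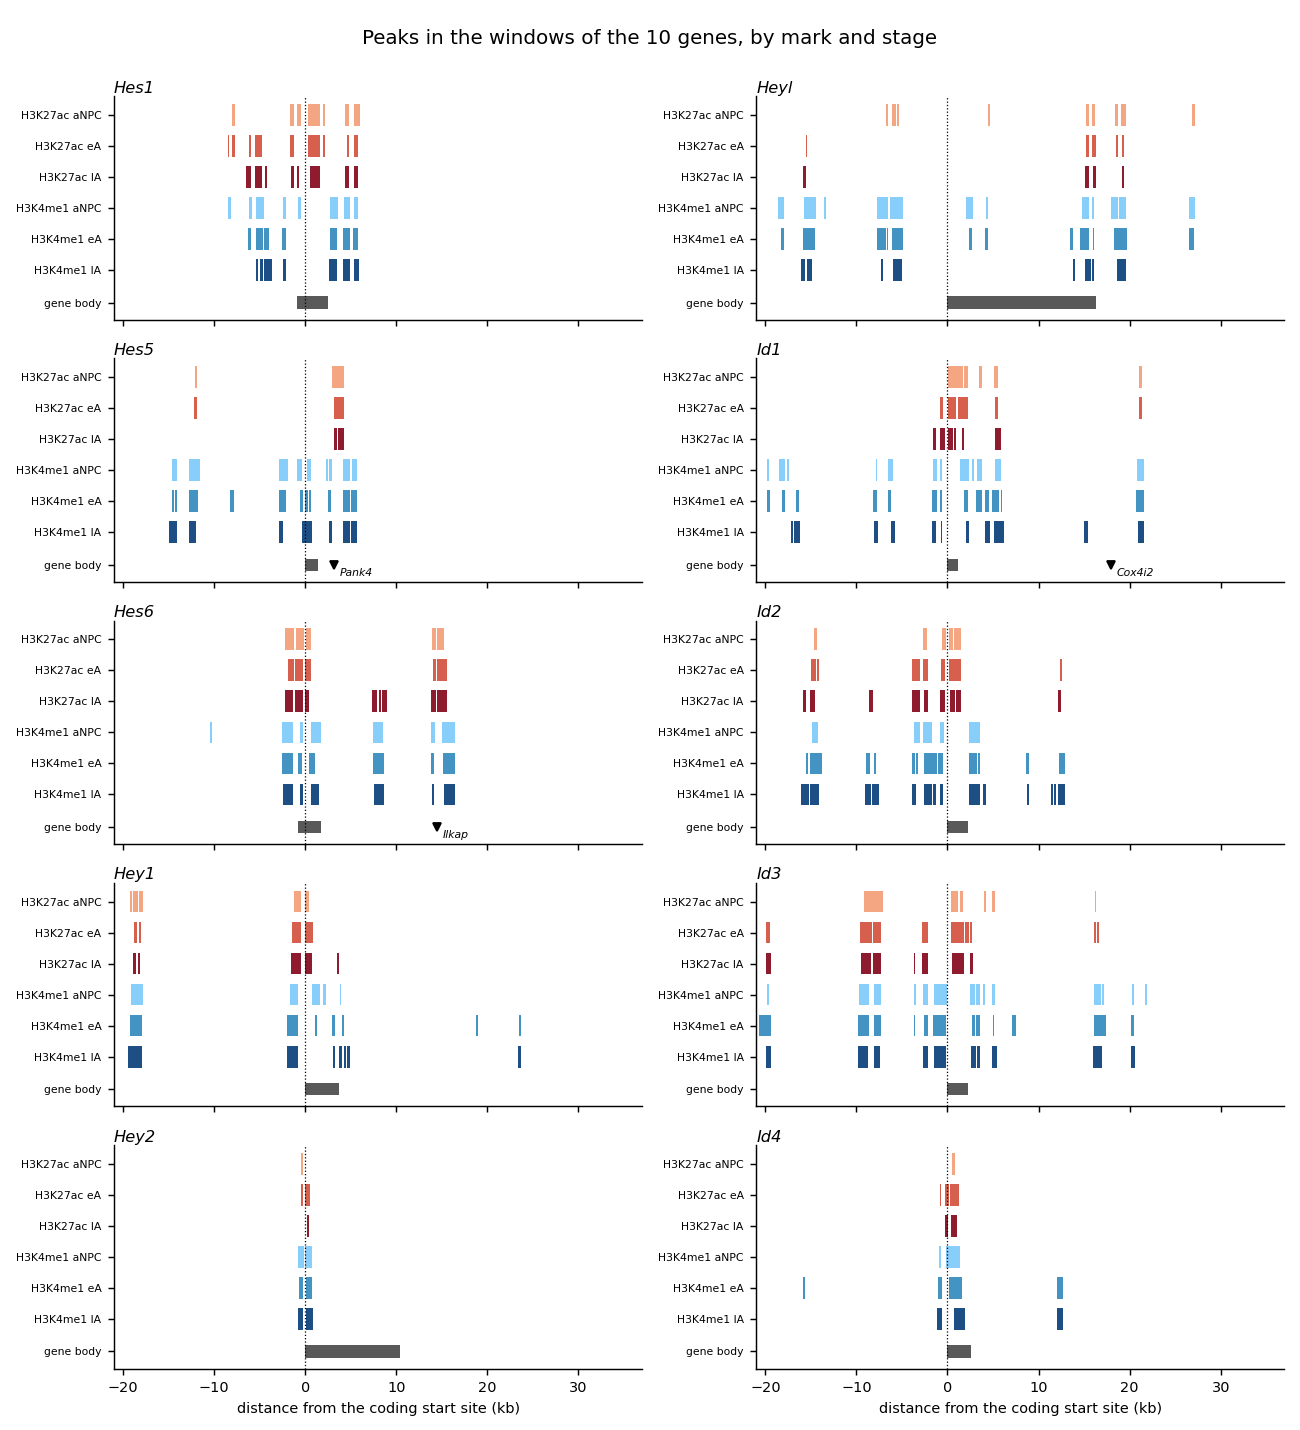
Bars are the peaks in the window of each gene, with 1 row per list and the annotated gene body as a dark bar, by distance from the coding start site (dotted line) in kb, positive in the direction of transcription. Triangles mark start sites of other coding genes (Pank4, Ilkap and Cox4i2), and the H3K27ac row of Heyl thins out from 9 peaks in aNPC to 4 in lA while those of Id2 fill from 5 to 9.

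Id1 is the Id gene most used as a readout of BMP signalling (chr2:152561987-152563146, plus strand). H3K27ac began 75, 60 and 91 bp downstream of its start site in aNPC, eA and lA, with percentiles of 73.8, 79.3 and 41.8. Upstream of the start site, H3K27ac was called in eA (751 bp away, percentile 72.2) and in lA (677 bp, percentile 62.6) and not in aNPC, and H3K4me1 was called there at all 3 stages (percentiles 36.0, 29.7 and 36.7). Further up, 1364 bp away, H3K27ac was called in lA alone (percentile 52.4), again over H3K4me1 of all stages (percentiles 90.4, 82.5 and 66.2). The strongest distal H3K27ac peak of Id1 was at the same place in every list, 5347, 5422 and 5489 bp downstream, with percentiles of 83.4, 76.3 and 76.0 and H3K4me1 at all stages. Its printed sequence (chr2:152567234-152567433) held an AP-1, a Stat and a Runx match. The strongest distal H3K4me1 peaks were 1331 bp upstream in aNPC, 21275 bp downstream inside Cox4i2 in eA (percentile 98.7) and 5390 bp downstream in lA. Of its 15 distal H3K4me1 sites, 5 lay more than 10 kb upstream, 2 marked in aNPC and eA and 1 each in aNPC alone, in eA and lA, and in lA alone, and none of the 5 had H3K27ac at any stage.

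Id2, which like the others sequesters bHLH partners, had promoter peaks of both marks in every list (chr12:25778666-25780957, minus strand). Its promoter H3K27ac summits were 447, 528 and 587 bp upstream (percentiles 49.9, 59.6 and 65.8). Downstream of the start site the gene body carried H3K27ac without H3K4me1 at all stages, as 2 peaks in aNPC, 1 peak of 1382 bp in eA (percentile 84.6) and 2 peaks in lA. A site 2523, 2487 and 2412 bp upstream had H3K27ac in every list (percentiles 71.9, 68.5 and 89.1) and H3K4me1 in every list. The site beside it, printed above for Id2, had H3K27ac in eA (chr12:25784020-25784850, percentile 74.9) and lA (chr12:25783952-25784883, percentile 68.8) and none in aNPC, where H3K4me1 was called (percentile 69.7). Its 200 bases held 2 NF1 arms. In lA, H3K27ac was called 8390 and 15741 bp upstream (percentiles 39.6 and 68.9) and in no other list, and H3K4me1 overlapped the first in eA and lA, the second in lA and neither in aNPC. At 12427 and 12341 bp downstream, both marks were called in eA and lA and neither in aNPC. Of the 12 distal H3K4me1 sites of Id2, 5 were in eA and lA and 3 in lA alone, and no other member had as many of these kinds. The strongest distal H3K4me1 peaks were 2486 bp upstream in aNPC, 14590 bp upstream in eA and 2829 bp downstream in lA (percentile 93.5).

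Id3, expressed with Id1 in most tissues, had 11 distal H3K27ac sites, more than any other member (chr4:135699412-135701670, plus strand). Around its start site the marks stood apart. H3K4me1 covered about the upstream kilobase (1488, 1350 and 1370 bp wide) and ended 46, 202 and 112 bp before the start site. H3K27ac began 363, 432 and 520 bp after it, with percentiles of 85.3, 92.9 and 73.3. The strongest distal H3K27ac peaks of the gene lay in an upstream region that both marks occupied in every list. Their summits were 8463, 8909 and 8920 bp upstream, with −log10 q of 81.7, 97.8 and 56.8 and percentiles of 90.9, 94.8 and 96.9. Closer to the gene, 2402 and 2484 bp upstream, H3K27ac was called in eA (chr4:135696646-135697247, percentile 79.7) and lA (chr4:135696643-135697296, percentile 96.0) and not in aNPC, with H3K4me1 at all stages (percentiles 74.2, 76.8 and 67.5). The lA sequence of this site, printed above for Id3, matched none of the 7 motifs. Similarly, 19601 and 19563 bp upstream, H3K27ac was called in eA and lA (percentiles 44.2 and 79.5) and H3K4me1 in every list. Downstream, H3K27ac peaks 4145 and 5011 bp away (percentiles 51.6 and 74.7) were called in aNPC alone. The strongest distal H3K4me1 peaks were 7557 bp upstream in aNPC (percentile 96.7) and 16530 and 16476 bp downstream in eA and lA (96.3 and 96.8), where H3K27ac was called in aNPC and eA.

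Id4, known for its role in neural stem cells and astroglia, lies at chr13:48356796-48359405 on the plus strand. No H3K27ac peak was called at its start site in aNPC, and in eA and lA peaks covered it (percentiles 84.5 and 58.0). H3K27ac in the gene body was called in every list, 273 bp wide in aNPC (percentile 29.6), 1048 bp in eA (80.7) and 727 bp in lA (63.5). H3K4me1 covered the start site in aNPC, in a peak of 1499 bp at percentile 97.8, and began 181 and 766 bp downstream of it in eA and lA. Upstream of the start site, H3K4me1 was called in every list with summits 779, 804 and 824 bp away (percentiles 78.6, 77.1 and 75.0). Outside the promoter and body, Id4 had H3K4me1 in eA and lA 12182 and 12238 bp downstream (percentiles 54.6 and 65.1), 1 weak H3K4me1 peak upstream in eA and no H3K27ac peak.

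Over the 10 genes, 35, 37 and 40 H3K27ac peaks and 62, 74 and 65 H3K4me1 peaks in aNPC, eA and lA were distal, meaning that they overlapped the promoter of no coding gene. Of the distal H3K27ac peaks, 9 of 35, 4 of 37 and 9 of 40 were unique to their stage, or 25.7% (95% interval 12.5% to 43.3%), 10.8% (3.03% to 25.4%) and 22.5% (10.8% to 38.5%). Over all distal peaks of these lists 42.9%, 20.4% and 32.0% were unique, each inside the interval of the members. Among peaks with a −log10 q of at least 5, the eA share was 20.7% (6 of 29), against 19.03% of all, and with lists of equal length 17.1%, against 21.3%. Of the distal H3K4me1 peaks, 8 of 62, 4 of 74 and 6 of 65 were unique, or 12.9% (5.74% to 23.9%), 5.41% (1.49% to 13.3%) and 9.23% (3.46% to 19.02%), where 13.3%, 11.7% and 29.7% were unique over all distal peaks. The background in lA lay above the interval of the members. That share was 18.98% in windows of 50 kb on each side, and 17.6% against 34.8% of all distal peaks if the summit had to lie inside the other peak. Neighbouring peaks of a window are not independent, so the intervals are too narrow to be read as a test.

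Merged over the stages, the windows held 52 distal H3K27ac sites. H3K27ac was called at all 3 stages at 16 of them (30.8%, against 19.2% of 115804 distal sites of the genome). Of these 16, some lay near their own start site, with centres 1470 bp upstream and 961 bp downstream at Hes1. Others had centres 1727 bp upstream at Hes6 and 828, 1083 and 777 bp downstream at Id2, Id3 and Id4. The rest lay further away, and the share was not recomputed with the promoter up to 1 kb downstream. A further 9 sites were marked in aNPC alone (17.3%, genome 23.9%), 9 in lA alone (17.3%, genome 21.7%) and 4 in eA alone (7.69%, genome 11.8%). Those of eA and lA numbered 8 (15.4%, genome 15.3%), those of aNPC and eA 6 (11.5%, genome 4.55%), and none was marked in aNPC and lA without eA (genome 3.63%). Of the 9 sites of aNPC alone, 5 belonged to Heyl and 2 to Id3. Of the 9 of lA alone, 3 belonged to Hes6 and 2 to Id2. Sites of eA and lA were found at Id3 (3), Hes1 (2), Id2 (2) and Heyl (1). Of 80 distal H3K4me1 sites, 39 (48.8%) were marked at all stages, against 36.6% in the genome, and 6 (7.50%) in lA alone, against 24.6%.

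**Figure D5:**
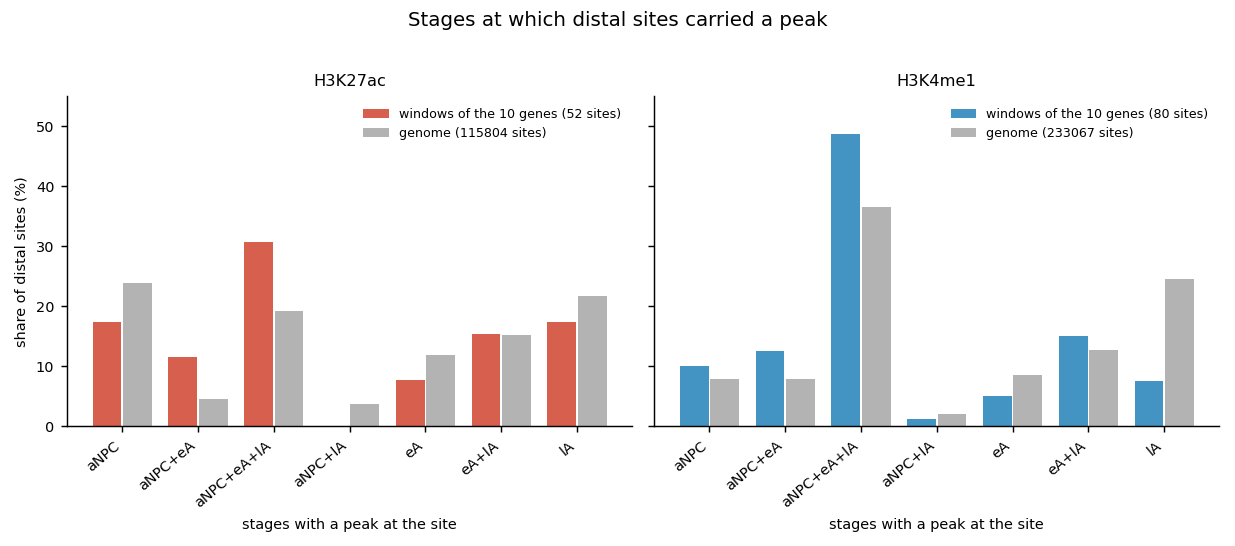
Bars give the share (%) of distal sites, merged over the stages, that carried a peak at the stages named below, for H3K27ac (left) and H3K4me1 (right), in the windows of the 10 genes (52 and 80 sites, coloured) and in the genome (grey). Sites with H3K27ac at all 3 stages make up 30.8% of those of the 10 genes and 19.2% of those of the genome. Some of these sites of the 10 genes lie close to a start site.

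Relative to aNPC, 12 of the 37 distal H3K27ac peaks of eA and 18 of the 40 of lA lay where aNPC had no H3K27ac peak, against 51.4% and 57.9% of all distal peaks of these lists. Of these, 10 of 12 in eA (83.3%, 95% interval 51.6% to 97.9%) and 13 of 18 in lA (72.2%, 46.5% to 90.3%) overlapped an H3K4me1 peak of aNPC. Over all such distal peaks the shares were 63.1% and 46.5%. In eA the 10 were 4 peaks of Id3, 3 of Hes1, 2 of Id2 and 1 of Heyl. In lA they were 4 of Id3, 3 of Hes6, 2 of Hes1 and 1 each of Hey2, Heyl, Id1 and Id2. The 3 of Hes6 overlapped the same H3K4me1 peak of aNPC (chr1:93301210-93302363) and so are not independent. In the reverse direction, 15 of the 35 distal H3K27ac peaks of aNPC had no H3K27ac peak in lA, where 52.5% of all distal aNPC peaks had none. H3K4me1 was still called in lA at 8 of these 15, against 55.4% over all such peaks. Heyl accounted for 6 of the 15 and for 3 of the 8.

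Both marks were found together at 26 of 35, 29 of 37 and 30 of 40 distal H3K27ac peaks in aNPC, eA and lA, or 74.3%, 78.4% and 75.0%, where 82.2%, 88.4% and 84.5% of all distal H3K27ac peaks overlapped H3K4me1 of the same stage. With the promoter up to 1 kb downstream, the members' shares were 83.3%, 84.8% and 84.4% and those of all distal peaks 82.4%, 89.0% and 85.5%. The members' peaks without H3K4me1 were mostly in their own gene bodies. Outside the bodies, 23 of 25, 26 of 29 and 26 of 30 had H3K4me1, and inside them 3 of 10, 3 of 8 and 4 of 10. Over all coding genes of at most 20 kb, 83.0%, 81.7% and 78.2% of the distal H3K27ac peaks in gene bodies overlapped H3K4me1, and 80.7%, 90.4% and 84.5% of those in no coding gene body. This split was made after the values had been seen. The gene-body peaks without H3K4me1 were those downstream of the start sites of Hes1, Id2 and Id3, with single peaks of Heyl, Hey1 and Id1.

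Motifs in the 200 bases around distal H3K27ac summits were near the level of all distal peaks of the same list for most of the 7. N boxes were in 13 of 35, 15 of 37 and 12 of 40 windows, where 34.1%, 33.6% and 34.1% of all distal windows held one. NF1 arms were in 3, 5 and 4 (background 12.2%, 12.6% and 11.7%), Runx in 5, 3 and 5 (14.9%, 14.3% and 14.7%), Stat in 3, 2 and 2 (6.26%, 6.69% and 6.50%), Rbpj in 1, 3 and 2 (5.01%, 5.04% and 4.95%) and AP-1 in 4, 1 and 0 (6.52%, 6.43% and 6.15%). BMP Smad letters were in 5, 3 and 2 windows, where 1.31%, 1.45% and 1.22% of distal windows held them. Those windows belonged to Hes1, Id3 and Id2, 7 of the 10 within gene bodies or at most 1587 bp upstream of a start site, and they held 6 distinct places, since a place under peaks of several stages counts at each. The same holds for the other motifs. The Rbpj matches were at Hes5, Hey1, Heyl and Id3, and the Hey1 match was under the lA summit 18310 bp upstream.

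Among other genes of the pathways, promoter H3K27ac was called at 7, 8 and 5 of 11 Notch pathway genes in aNPC, eA and lA and at 8, 8 and 6 of 10 BMP pathway genes, where all coding genes had it at 50.6%, 53.2% and 48.2% of promoters. Notch1, the receptor, and Dll3, a ligand, had H3K27ac at the promoter in aNPC and eA and not in lA, and the receptor Notch3 had it in eA alone. Rbpj and its coactivator Maml1 had peaks in all 6 lists. In the BMP pathway, the ligand gene Bmp2 and the transducer gene Smad1 had promoter H3K27ac in aNPC and eA and not in lA. The receptor genes Bmpr1a, Bmpr1b, Bmpr2 and Acvr1 and the genes Smad5 and Smad6 had it at every stage, and Bmp4 and Bmp7 at none. H3K4me1 was called at 8, 8 and 7 Notch promoters and 8 BMP promoters at each stage (55.4%, 53.6% and 52.7% of all coding genes). Of the other Hes and Hey relatives, Hes3, Bhlhe40 and Bhlhe41 had promoter H3K27ac at all stages and Hes2, Hes7 and Helt at none. Among bHLH partners or targets of Id and Hes proteins, Tcf3 and Tcf12 had promoter peaks in all 6 lists, Neurog2 H3K4me1 alone and Olig2 no peak.

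In rank, the median percentile of the members' peaks in their own lists was 62.0, 59.6 and 65.2 for H3K27ac and 62.2, 48.6 and 64.0 for H3K4me1 in aNPC, eA and lA. The top 10% of a list by −log10 q held 9 of 46, 8 of 51 and 8 of 52 of the members' H3K27ac peaks, and 10 of 76, 7 of 86 and 10 of 76 of their H3K4me1 peaks.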

How the data were processed

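The 6 peak lists were made by the authors from 12 ChIP-seq samples, 2 biological replicates per mark and stage. Per the study's methods, reads were aligned uniquely to mm9 with Bowtie, replicates were merged with SAMtools (0.1.19), and peaks were called with MACS2 at default settings and without an input control. The deposited −log10 values are those of the q-value at each summit, and the summit is given as an offset in bp from the start of the peak. No read depth is given.

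The 4 or 5 mitochondrial peaks of each list were left out, and no other peak ran past a chromosome end of NCBIM37. Gene bodies and coding start sites came from GENCODE M1 (mm9). An overlap of 1 bp made peaks shared. No test between stages was made. All 10 members are described by their promoter peaks and strongest distal peaks, but the strength of some of these peaks is not given. Members, lists and motifs were chosen with earlier results of these data known. Overlap and motif functions were tested on simulated data. Python 3.11.15, NumPy 2.4.6, SciPy 1.17.1 and matplotlib 3.10.9 were used. RNA-seq and the 8 samples with conflicting labels were not analysed here, and 1 gene of the pathway and marker lists is not reported here.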

Additional observations from a re-analysis of the deposited data

How the results depend on the processing

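Of 104 values recomputed under 6 alternatives, 97 stayed within 1.5 times the count or within the 95% interval of the share. Windows of 50 kb on each side held 84, 94 and 102 H3K27ac peaks in aNPC, eA and lA and 144, 160 and 156 H3K4me1 peaks, since they are longer. If a peak counted as shared only with its summit inside the other peak, 55.6% of the distal H3K27ac peaks of lA overlapped H3K4me1 of lA, and the share over all distal peaks of lA went from 84.5% to 71.0%. The cause was not tested. Shares that stayed within the interval but moved by over 1.5 times were those of distal H3K4me1 peaks unique to lA (18.98% in windows of 50 kb, 17.6% with the summit rule) and to eA (9.09% with the summit rule), and of distal H3K27ac peaks unique to eA (20.7% with a −log10 q of at least 5, 17.1% with lists of equal length). Windows of 10 kb, peaks with a −log10 q of at least 5, the same number of peaks per list of a mark, and promoters up to 1 kb downstream moved none of the recomputed counts and shares beyond these limits. The shares of distal H3K27ac peaks absent in aNPC that overlapped its H3K4me1 were recomputed only at a −log10 q of at least 5. They were then 76.9% in eA and 68.8% in lA, and their dependence on the other alternatives was not tested. Replicates could not be left out and no paired analysis was possible because the lists were made from merged replicates. Unknown read depth limits every statement on a stage without a peak.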
